A study of Mus musculus with 2 samples.

Results

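The transcripts described here encode the MYC, MAX and MXD network of transcription factors, measured by mRNA-seq in mouse intestinal organoids (mIOs) with and without dextran sulfate sodium (DSS). The network genes were taken by name: Myc, Mycl, Mycn, Max, Mxd1, Mxd3, Mxd4, Mxi1, Mnt and Mlx. All 10 had a row in the count table, which lists 19294 genes, and all 10 passed a filter that asked for 10 counts or more in either library, as 17235 genes did. The mIOs were grown from jejunal crypts of Lgr5-EGFP-IRES-creERT2 mice, which carry EGFP and an inducible Cre recombinase at the Lgr5 locus of stem cells, in medium with EGF, Noggin and R-spondin. Both conditions share this genotype and medium. There was 1 control library and 1 library of mIOs treated with DSS, a polysaccharide used to model colitis, for 4 days. Both were labelled day 4, and the DSS concentration of the sequenced culture is not given in the sources used here. The depth was 65493032 counts for the control and 59746968 counts after DSS.

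With 1 library per condition, no difference has a replicate check and no test was made. Each difference is the log2 of the scaled DSS count over the scaled control count, and its 95% interval is the exact one of Clopper and Pearson for those 2 counts. The interval covers counting error only, and reads without molecular identifiers are not independent molecules. Where a gene lay at a log2 ratio of 1 or more, or of -1 or less, it is said to be past the 2-fold line.

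MYC proteins bind DNA at E-boxes, most often with the letters CACGTG, and do so only as a pair with MAX. Such pairs recruit coactivators to genes for ribosome assembly, nucleotide synthesis and cell growth. MXD proteins and MNT compete for MAX, bind the same E-boxes and bring the SIN3 corepressor with its histone deacetylases instead. In the intestine, MYC is a target of WNT signaling in the dividing cells of the crypt, and MXD1 is known as a marker of cells that have left the cycle and differentiate. MLX is a relative of MAX that pairs with the glucose-responsive factors MondoA and ChREBP, and with some MXD proteins.

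The labels call the cells intestinal stem cells, so the libraries were first compared with marker genes. Epithelial genes were abundant in both libraries, with Epcam at a scaled CPM of 941 with no DSS and 960.3 with DSS. Scaled CPM gives the reads of a gene relative to the total count of its library multiplied by that library's TMM scaling factor. The factors were 1.09 for the control and 0.915 for the DSS library. Markers of other tissues that had a row were at low levels. A gene without counts in either one of the libraries has no row, so that a marker without a row may have counts in the other library. Of 8 mesenchymal genes, 4 had a row, and their summed level was 1.44 CPM without and 2.10 CPM with DSS. Of 8 immune genes, 3 had a row, with 5.45 and 12.1 CPM in sum, almost all of it Itgam. The markers without a row were Col1a2, Col3a1, Dcn and Lum of the first list and, among others, Ptprc, Cd3e and Adgre1 of the second. Lgr5, the stem cell receptor for R-spondin, was at 263 CPM in the control and only 19.2 CPM after DSS, where Sis, which encodes the enterocyte enzyme sucrase-isomaltase, stood at 7062 CPM. Sis was also present in the control, at 709 CPM, so that both cultures held transcripts of mature cells beside those of stem cells. In bulk RNA, fewer cells of a type and less RNA per cell cannot be told apart.

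The MYC family was lower in the DSS library. Myc had 5101 control counts and 994 DSS counts, or 71.3 and 18.2 CPM. It was 3.92-fold lower with DSS, with an interval from 3.66 to 4.20, and its log2 ratio was -1.97. Mycl, the family member first found in lung tumors, had 2067 and 593 counts and a log2 ratio of -1.41 (95% interval, -1.55 to -1.28). Mycn, best known from neuroblastoma, was rare in both libraries, at 121 and 53 counts. Its log2 ratio of -0.80 did not reach the line, and the interval from -1.30 to -0.33 reached across it. Mycl and Mycn were thus less reduced than Myc by ratio. Within a library, where no scaling enters, Mycl relative to Myc was 1.47-fold higher with DSS (1.31 to 1.65), and Mycn relative to Myc was 2.25-fold higher (1.58 to 3.15).

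Max, the shared partner, lay close to its control level. It had 2932 control counts and 1817 DSS counts, 41.0 and 33.2 CPM, and a log2 ratio of -0.30 (-0.39 to -0.22). All 9 other network genes differed from Max in ratio by more than counting error. Myc relative to Max was lower by a log2 change of -1.67, from -1.80 to -1.54, and Mxd1 relative to Max was higher by 3.72, from 3.61 to 3.84. Mycn came nearest to Max, at 0.707 of its control ratio to Max (0.499 to 0.990).

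Mxd1 had the largest increase of the network. It had 1335 control counts and 10932 DSS counts, 18.7 and 199.95 CPM. This was 10.7-fold higher with DSS, with an interval from 10.1 to 11.4 and a log2 ratio of 3.42. Of the 17235 genes that passed the filter, 2.06% had a higher ratio than Mxd1. Mxd4, a second MXD gene tied to resting and differentiating cells, had 149 and 395 counts and a log2 ratio of 1.80 (1.52 to 2.08). Mxd4 was rare in both libraries, at 2.08 and 7.22 CPM.

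Mxd3 went the other way from Mxd1 and Mxd4. This member is known to be expressed in dividing cells during S phase, unlike its relatives. It had 250 control counts and 16 DSS counts, 3.49 and 0.293 CPM, and was 11.9-fold lower with an interval from 7.21 to 21.2. Its log2 ratio of -3.58 was the lowest of the network, and 1.40% of the genes that passed the filter lay below it. Between the libraries, Mxd1 relative to Mxd3 was 128-fold higher with DSS (76.9 to 228), although both encode MXD proteins. The width of this interval comes from the 16 Mxd3 counts.

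The other antagonists, Mxi1 and Mnt, and the MAX relative Mlx were higher with DSS by less than 2-fold. Mxi1, also called MAD2, had 6637 and 7075 counts and a log2 ratio of 0.48, from 0.43 to 0.53. Mnt, the antagonist present in most dividing and resting cells, had 2399 and 2554 counts and also a log2 ratio of 0.48, from 0.40 to 0.56. Mlx had 4013 and 5258 counts and a log2 ratio of 0.78, from 0.72 to 0.84.

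In all, 2 of the 10 network genes lay at a log2 ratio of 1 or more and 3 at -1 or less. Of all genes that passed the filter, 19.3% lay at 1 or more and 20.2% at -1 or less, and of the 8960 genes that reached 1000 counts in either library the shares were 12.8% and 17.7%. The share of network genes past the line was thus close to that of the table as a whole. With the line at a log2 ratio of 2, Mxd1 alone lay above it and Mxd3 alone below its negative, where 7.87% and 6.54% of all genes lay. The network median was 0.09, and -0.17 with total counts, where the median of all genes was -0.06 and -0.31. The genes past the line were Myc, Mycl and Mxd3 on the lower side and Mxd1 and Mxd4 on the higher side. With total counts in place of the scaling used here, every log2 ratio moved by -0.26, Mycn crossed the line at -1.06, and 37.1% of all genes past either line were higher with DSS in place of 48.9%. No network gene changed sign under any scaling tried.

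**Figure D1:**
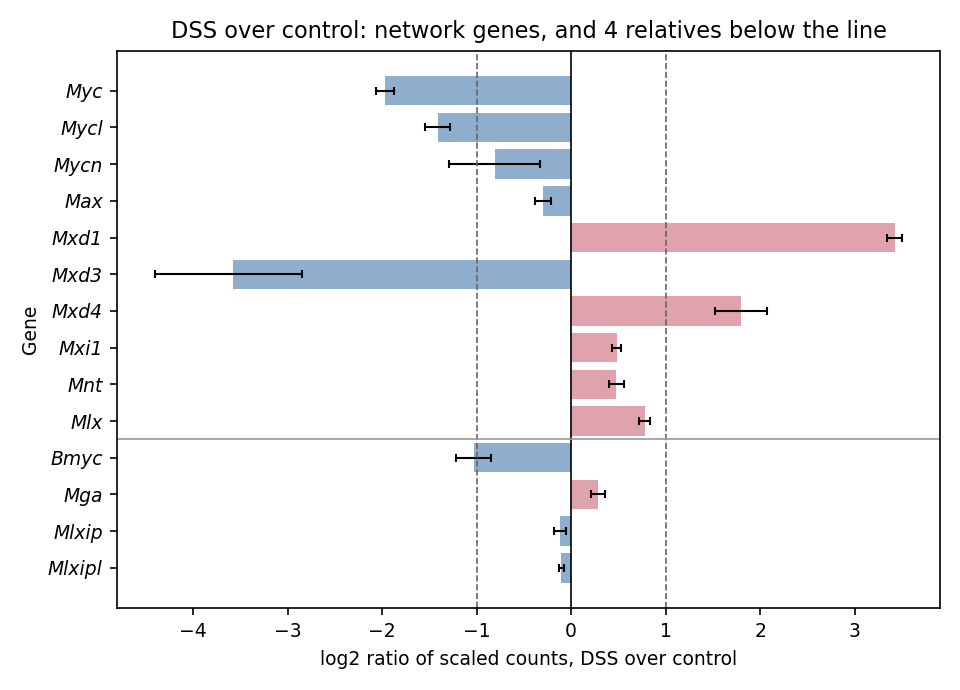
log2 ratio of scaled counts (horizontal axis), DSS over control, for the 10 network genes and, under the grey line, 4 related genes. Whiskers are exact 95% intervals for counting error, dashed lines mark 1 and -1, and red and blue bars are genes higher and lower with DSS. Mxd1 at 3.42 and Mxd3 at -3.58 stand at opposite ends.

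Levels can be compared between genes only per transcript length, so scaled CPM was divided by the median length in kilobases of each gene's annotated transcripts. On this scale the control library had Mxi1 first at 39.6 CPM per kilobase, then Mlx at 30.7 and Myc at 30.5, whose counting intervals overlapped. Max followed at 21.2, Mycl at 8.50, Mnt at 7.30, Mxd1 at 4.00 and Mxd3 at 2.63. Mycn at 0.632 and Mxd4 at 0.538 were last, and their intervals overlapped too.

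In the DSS library the order was different below the top. Mxi1 at 55.3 CPM per kilobase and Mlx at 52.7 led again, with overlapping intervals, and Mxd1 was next at 42.9. Max stood at 17.2, Mnt at 10.2, Myc at 7.78, Mycl at 3.19 and Mxd4 at 1.87. Mycn at 0.363 and Mxd3 at 0.221 closed the order with overlapping intervals. Myc thus went from above Max to below it, and Mxd1 from below Max to above it.

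**Figure D2:**
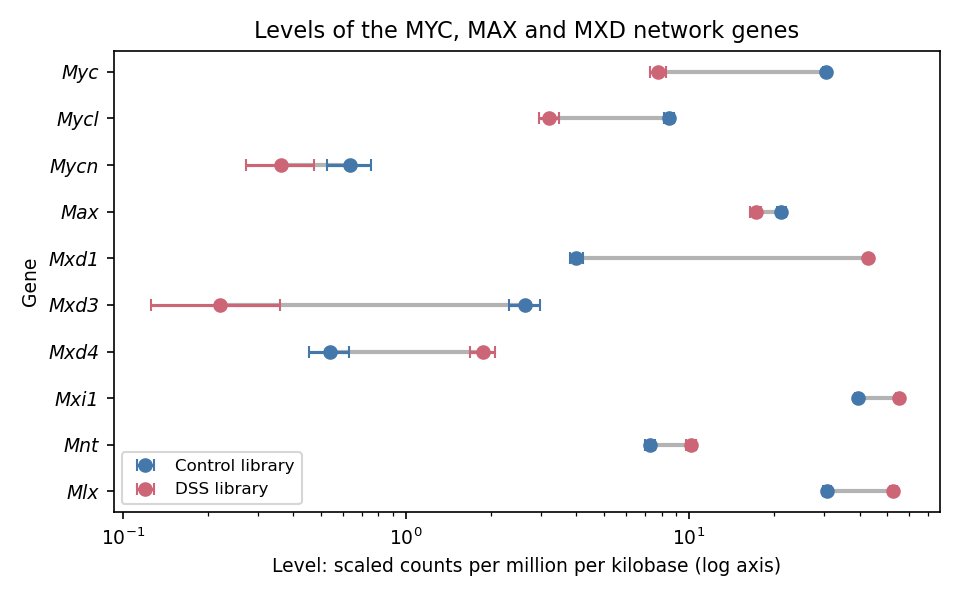
Level of each network gene in scaled CPM per kilobase (log axis) in the control library (blue) and the DSS library (red), with exact 95% Poisson intervals for counting error. The lines for Myc and Mxd1 run in opposite directions between 30.5 and 7.78 and between 4.00 and 42.9.

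The same levels give the make-up of the pool of transcripts for proteins that pair with MAX. Over the 8 partners in the network, the 3 MYC genes took 42.3% of the summed level in the control library and 9.31% in the DSS library. The 5 antagonists took the rest, 57.7% and 90.7%. Myc alone went from 32.5% to 6.39%, and Mxd1 from 4.27% to 35.2%. Mxi1 kept the largest share in both libraries, at 42.3% and 45.4%. With the longest transcript of each gene in place of the median length, the MYC genes took 44.2% and 9.72%. These are shares of RNA, and protein, its turnover and DNA binding were not measured.

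The raw counts of Mxd1 and Myc state the same without length or scaling. There were 3.82 Myc counts for each Mxd1 count in the control and 0.0909 after DSS. Mxd1 relative to Myc was thus 42.0-fold higher with DSS (38.4 to 46.0), or 5.39 on the log2 scale. As raw sums, the MYC genes had 7289 and 1640 counts, and the 5 antagonists 10770 and 20972.

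**Figure D3:**
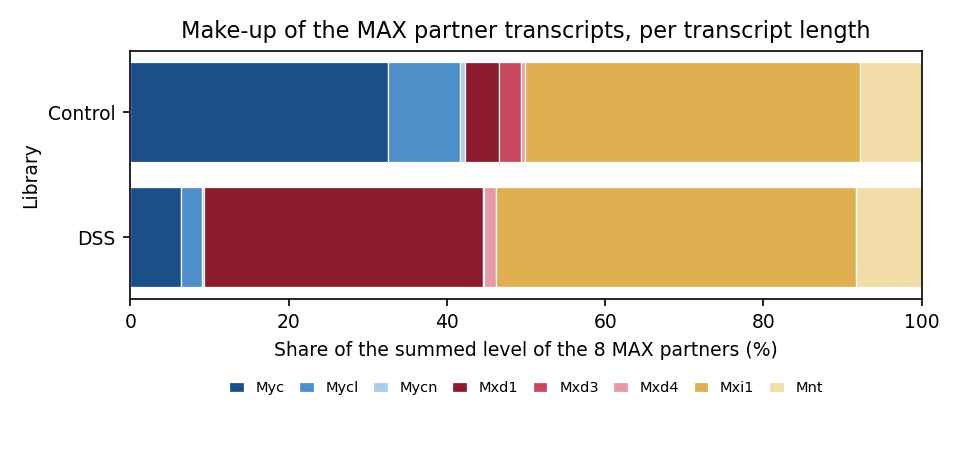
Share (%) of each gene in the summed level of the 8 MAX partners, per transcript length, in the control library (upper bar) and the DSS library (lower bar). Blue parts are the MYC genes, which took 42.3% and 9.31%, and dark red is Mxd1, at 4.27% and 35.2%.

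Some network genes overlap other genes on the chromosome, and the use of strand in counting is not given in the sources used here. Gm38850, a long noncoding RNA gene within Mxd1 on the same strand, had 21 control counts and 455 DSS counts and a log2 ratio of 4.83 (4.20 to 5.53). These counts are few beside those of Mxd1, and reads of the pair may not be separable. Psmc3ip, which lies across Mlx on the other strand, had 207 and 11 counts. Prelid1, which overlaps Mxd3 on the other strand, had 23216 and 18971 counts, so that Mxd3 stands beside a far more abundant neighbour.

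Genes outside the 10 complete the network. Bmyc, a rodent gene for a shortened MYC relative without the DNA-binding part, had 848 control counts and 317 DSS counts, a log2 ratio of -1.03 from -1.22 to -0.84, so that its interval crossed the line. Mga, a large MAX partner that represses germline genes, had 3486 and 3241 counts and a log2 ratio of 0.28, from 0.21 to 0.35. Mlxip, which encodes MondoA, was at -0.11, and Mlxipl, which encodes ChREBP, was at -0.10. Mlxipl was by far the most abundant of the 4, at 421 CPM without and 392 CPM with DSS.

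E-boxes were looked for in the RefSeq promoter windows of the mouse build GRCm38.p6, from 250 bases before to 50 bases after each gene's start. The motif CACGTG reads the same on both strands. Of the network genes, 9 matched a window, all but Myc, and 4 of these 9 held the motif: Max, Mxd4, Mnt and Mlx. Mxd1, Mxd3, Mxi1, Mycl and Mycn had no match in these windows. The motif was in 7.15% of all promoter windows and in 11.2% of the genes that passed the filter and had a window. The sites of the 4 genes are shown as 30 bases each, on the strand of the gene and 5′ to 3′, with the motif in capitals, because they carry the letters to which the network's own proteins can bind.
Max, chr12:76962234-76962263, minus strand: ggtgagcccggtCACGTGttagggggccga
Mxd4, chr5:34187912-34187941, minus strand: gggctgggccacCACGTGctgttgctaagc
Mnt, chr11:74830789-74830818, plus strand: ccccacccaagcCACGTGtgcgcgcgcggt
Mlx, chr11:101087238-101087267, plus strand: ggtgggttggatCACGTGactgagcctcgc
The motif starts 3 bases before the start of Max, 219 before that of Mxd4, 123 before that of Mnt and 40 before that of Mlx. These 4 genes ran from a log2 ratio of -0.30 for Max to 1.80 for Mxd4, so that genes with the motif lay on either side of 0.

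The promoter of Mxd1, the gene with the largest increase, is shown because its window has no match to CACGTG and is rich in G and C. The 250 bases before its start, chr6:86669160-86669409 on the minus strand, are 78.4% G and C and hold 6 matches to the GC box GGGCGG, counted on both strands and with overlaps, in capitals below.
Mxd1: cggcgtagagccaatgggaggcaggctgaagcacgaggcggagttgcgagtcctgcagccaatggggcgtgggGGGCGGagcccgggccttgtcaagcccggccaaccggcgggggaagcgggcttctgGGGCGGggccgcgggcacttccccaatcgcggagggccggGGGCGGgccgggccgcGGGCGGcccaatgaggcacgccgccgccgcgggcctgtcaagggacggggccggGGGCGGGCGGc
The GC box was in 35.7% of all promoter windows and in 63.4% of the 12293 genes that passed the filter and had a window. It was also in 7 of the 9 network genes that had a window, among them Mxd3, which went the opposite way with 8 matches. The motif CTTTGA, the core of the site of the WNT effectors of the TCF family, or its reverse complement TCAAAG was in 16.0% of all windows. Of the 9 network genes with a window, Mycn alone held it. Myc had no window, so its promoter could not be searched.

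A list of 40 genes known to be activated by MYC was compared between the libraries. Like the lists below, it was written by hand with earlier results of these data known. All 40 passed the filter, and 33 lay at a log2 ratio of -1 or less, or 82.5%, against 20.2% of all genes and 17.7% of the 8960 genes that reached 1000 counts in either library, as each of the 40 did. These genes share that minimum and were not matched on abundance. None lay at 1 or more. The list median was -1.89, with a middle range of the genes from -2.59 to -1.40, whereas the median of the 8960 genes was -0.10. The summed level was 10041 CPM without and 5046 CPM with DSS, with Ldha the most abundant gene in both.

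The lowest targets were Dkc1, Cad and Grwd1. Dkc1 encodes dyskerin, which modifies ribosomal RNA and holds telomerase RNA. It had 4546 and 369 counts and a log2 ratio of -3.23, from -3.39 to -3.08. Cad encodes the enzyme that opens pyrimidine synthesis and is a much studied target of MYC. It had 4767 and 503 counts and a log2 ratio of -2.86. Grwd1, a ribosome assembly factor, had 1904 and 203 counts and was at -2.84.

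The highest targets were close to 0. Cdc25a, the phosphatase that activates cyclin-dependent kinases, had 3517 and 3370 counts and a log2 ratio of 0.33, from 0.26 to 0.40. Ldha, which encodes lactate dehydrogenase, was at 0.27 with 130457 and 119879 counts. Slc19a1, the folate carrier, was at 0.17, and at -0.09 with total counts only. Odc1, the polyamine enzyme often used as a model MYC target, was at -0.21 and is named here after its value was seen.

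Of the targets, 34 matched a promoter window, and 10 of them, or 29.4%, held CACGTG, against 11.2% of the genes that passed the filter and had a window. The genes with the motif had a median log2 ratio of -1.62, with 7 of 10 at -1 or less, and the 24 without it had a median of -1.89, with 21 of 24, where 20.2% of all genes and 17.7% of those that reached 1000 counts lay. The split holds for this window only, and a gene without a match may have an E-box elsewhere. Cad is among those without a match. Cdk4, the kinase partner of cyclin D, held 4 matches, the most of the list, and had a log2 ratio of -1.99. Impdh2, a guanine nucleotide enzyme, was at -2.63, and Grwd1 at -2.84 and Mybbp1a at -2.64, which also held the motif, were lower. One site each of Cdk4 and Impdh2 is shown beside one of Ldha, the highest of the genes with the motif. Capitals mark the same letters.
Cdk4, chr10:127063405-127063434, plus strand: aagtcaaggggtCACGTGggatagcaacag
Impdh2, chr9:108560314-108560343, plus strand: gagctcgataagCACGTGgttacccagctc
Ldha, chr7:46845744-46845773, plus strand: cggcccagcctaCACGTGggttcccgcacg

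Genes known to be repressed by MYC were listed as well. Of 12 such genes, 11 passed the filter, 4 lay at a log2 ratio of 1 or more, or 36.4%, and 1 at -1 or less, or 9.09%, against 19.3% and 20.2% of all genes. Of genes that reached 1000 counts in either library, as all 11 did, 12.8% and 17.7% lay there. The median was 0.86. Cdkn2b, the inhibitor p15 of cyclin D kinases, had 768 control counts and 3405 DSS counts and led the list at 2.54, from 2.42 to 2.65. Ndrg1, named for its repression by MYC, had 69894 and 150730 counts, 977 and 2757 CPM. Klf4, a factor of differentiating epithelium, was at 1.47. At the other end, Ndrg2, a relative of Ndrg1, was at -1.77 with 5229 and 1169 counts, Gadd45a was at -0.54 and Cdkn1b, the inhibitor p27, at -0.45. The list was therefore not of 1 direction.

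The partners that carry out activation were listed next. Of 15 MYC coactivator genes, 6 lay at -1 or less, or 40%, against 20.2% of all genes that passed the filter. None lay at 1 or more, where 19.3% of all genes lay, and the median was -0.37. All 15 reached 1000 counts in either library, and of genes that did so 17.7% lay at -1 or less and 12.8% at 1 or more. Ruvbl1 at -2.39 and Ruvbl2 at -2.35, the paired ATPases of several chromatin complexes, and Kat2a at -2.30, the acetyltransferase GCN5, were lowest. Crebbp at 0.48, Kat2b at 0.38 and Ep300 at 0.37, acetyltransferases as well, were highest. Kat2a and its close relative Kat2b thus lay on opposite sides of 0.

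Of 16 genes for the corepressors of MXD proteins and MNT, 4 lay at -1 or less, or 25%, near the 20.2% of all genes. None lay at 1 or more, against 19.3% of all genes, and the median was -0.22. All 16 reached 1000 counts as well, for which the shares were 17.7% and 12.8%. Sin3a, which binds MXD proteins directly, was at -0.64, and Sin3b at -0.09. Rbbp7, a histone-binding subunit, had 107280 and 14150 counts and was lowest at -2.53, followed by Hdac2 at -1.76 and Sap30 at -1.72. The highest were Brms1 at 0.54, Ing1 at 0.51 and Arid4b at 0.44. Sin3a and Sin3b are named here as the direct partners of MXD proteins, outside the rule for named genes.

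MYC protein is short-lived, so genes for its turnover were listed. Of 15 genes, 6 lay at -1 or less, or 40%, and 1 at 1 or more, or 6.67%, against 20.2% and 19.3% of all genes, and the median was -0.46. Of genes that reached 1000 counts in either library, as 14 of the 15 did, 17.7% and 12.8% lay there. Plk1 at -3.92 and Aurka at -3.92, mitotic kinases that protect MYC proteins from degradation, and Cip2a at -3.68, an inhibitor of the phosphatase PP2A, were lowest. Fbxo32, a ubiquitin ligase subunit, was the only gene at 1 or more, at 3.21 from 2.47 to 4.03, with 17 control counts and 120 DSS counts. Gsk3b at 0.15 and Huwe1 at 0.14 were close to 0. Fbxw7, the ligase subunit that recognises phosphorylated MYC, was at -0.27 and is named here after its value was seen. These ratios describe transcripts, and the amount of MYC protein was not measured.

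Upstream of Myc in the crypt stand β-catenin and the TCF factors. Ctnnb1, which encodes β-catenin, was at 0.32 with 49634 and 47234 counts. Lef1 had 205 and 13 counts and was at -3.59, from -4.52 to -2.78, and Tcf7 was at -3.03. Tcf7l2, the main TCF factor of the intestinal epithelium, was at 1.28, so that the TCF genes lay on both sides of the line. Bcl9 was at -0.73 and Bcl9l at -0.08. Of the 8 genes with a row, 2 lay at -1 or less, or 25%, and 1 at 1 or more, or 12.5%, shares near the 20.2% and 19.3% of all genes.

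Markers of dividing, stem and mature cells differed between the libraries together with the network. All the counts that follow stand beside 20.2% of all genes at -1 or less and 19.3% at 1 or more. Of 12 genes of cycling cells, 11 lay at -1 or less, with a median of -4.14, and their summed level went from 1829 to 276 CPM. Mki67 was the most abundant in the control library, and Pcna, at -0.71, was the exception and the most abundant in the DSS library. All 6 stem cell genes lay at -1 or less, with a median of -4.02 and summed levels of 855 and 132 CPM. Smoc2 was the least reduced of the 6, at -1.25, and made up most of their DSS sum, at 104 CPM. All 8 enterocyte genes lay at 1 or more, with a median of 3.01 and summed levels of 2395 and 21197 CPM, and all 6 goblet cell genes did so too, with a median of 4.37 and 753 and 11359 CPM. Among the cycling genes, Mcm5, a helicase subunit of replication, was lowest at -4.70. Olfm4, a stem cell marker, had 13109 control counts and 13 DSS counts, a log2 ratio of -9.59. Axin2, a WNT target like Myc, was at -4.26, and Ascl2, a stem cell factor, at -4.31. Of the mature markers, Apoa1 was at 5.27, the alkaline phosphatase Alpi at 3.94 and the mucin gene Muc2 at 4.98. Each gene of these 4 lists had counts in both libraries. Of 8 genes of the epithelium as a whole, 2 lay at 1 or more, or 25%, among them the brush border gene Vil1 at 1.25. At -1 or less lay 1, or 12.5%, the intestinal factor Cdx2 at -1.35. These shares were near those of all genes. Of genes that reached 1000 counts in either library, as all 8 did, 12.8% lay at 1 or more and 17.7% at -1 or less. The summed levels of the 8 genes were 6037 and 9291 CPM. By RT-PCR of DSS-treated mIOs, the paper reported lower Lgr5 but little difference in Vil1 and Muc2. For Vil1 and Muc2 the RT-PCR and the libraries thus differ, and the reason was not tested. Myc at -1.97 lay well above the medians of the cycling and stem cell lists, whereas Mxd3 at -3.58 lay near them, and Mxd1 at 3.42 lay near that of the enterocyte genes. Outside these lists, COX1, the most abundant gene of both libraries, was at 26980 CPM without and 55090 CPM with DSS. The part of the different make-up of cells in the network's values was not tested.

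**Figure D4:**
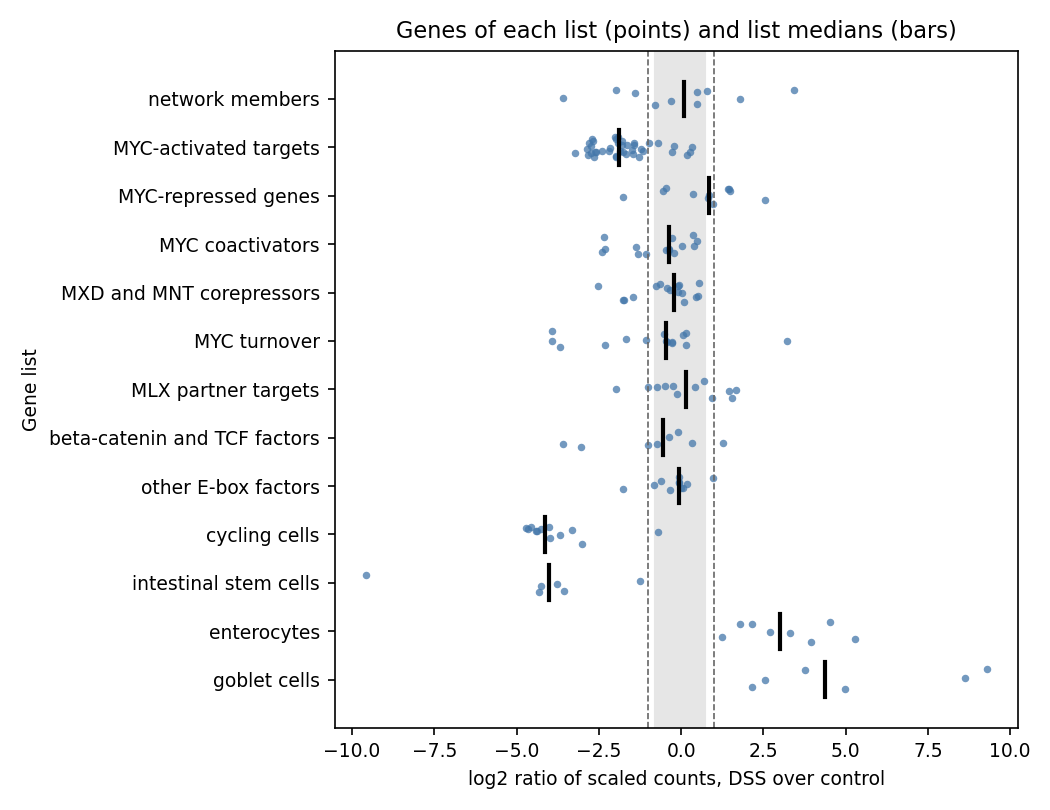
log2 ratio of scaled counts, DSS over control (horizontal axis), for each gene of 13 lists (points) with the list median (black bar). The grey band is the middle range of all 17235 genes, from -0.79 to 0.73, and dashed lines mark 1 and -1. The MYC-activated targets sit at a median of -1.89, between the network median of 0.09 and the cycling genes at -4.14.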

How the data were processed

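Raw counts of reads per gene, deposited by the authors, were used for 1 control and 1 DSS library, made with a stranded poly(A) kit. HISAT2 and StringTie are named in the submitters' processing notes, and versions, build and strand setting are not given in the sources used here. The single-sample files are named FPKM but hold the same counts for all 19294 genes. The lowest count is 1, so genes without counts in a library have no row.

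Counts were scaled with TMM factors of edgeR 4.0.16 (R 4.3.3), 1.09 for the control and 0.915 for the DSS library. The control library had 65493032 and the DSS library 59746968 counts, which sets the counting intervals. With no replicates, no test was made. Alternatives were total counts, size factors of DESeq2 1.42.0, upper quartiles, median centring, a prior count of 2, thinning, other count filters and a line of 2. The comparison with genes of 1000 counts or more was added after seeing the data. Lengths came from GENCODE vM21 transcripts matched by RefSeq accession, and promoter windows from RefSeq GRCm38.p6. The computation was tested on simulated data with counting noise only and few changed genes, unlike the libraries here. Python 3.11.15, numpy 2.4.6, scipy 1.17.1, pandas 2.3.3 and matplotlib 3.10.9 were used.

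The members and the 16 other gene lists, written by hand from general knowledge, were chosen with earlier results of these data known. The named genes are all members and relatives, all genes of lists of up to 8, and otherwise the 3 lowest and 3 highest ratios among genes that reached 50 counts in either library. Not every gene under this rule is given, and some named genes, among them Impdh2, Cdk4 and Mki67, fall outside it.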

Additional observations from a re-analysis of the deposited data

How the results depend on the processing

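Each condition is 1 library, so culture, handling and DSS cannot be told apart, and the intervals cover counting error only. With the line at a log2 ratio of 2, 1 network gene was at or above it and 1 at or below minus that value, in place of 2 and 3, and 15 of the MYC-activated targets were at or below it in place of 33, where 7.87% and 6.54% of all genes were past the higher and the lower line. Other settings were DESeq2 size factors, total counts, upper quartile factors, median centring, a prior count of 2 and thinning of the control library. Under each of these, the number of network genes at 1 or more was 2. The number at -1 or less was 3, or 4 with total counts, and the number of targets at -1 or less was 33, or 34 with total counts. Of the 17235 genes that passed the filter, 3486 lay at -1 or less in the main setting and 4508 with total counts. The log2 ratio of Mxd1 ranged from 3.17 to 3.51, that of Myc from -2.23 to -1.88, that of Mxd3 from -3.83 to -3.42 and that of Max from -0.56 to -0.21. The Mxd1 to Myc change was 5.39 with a prior count of 2 and 5.37 with thinning. Asking for 50 counts in both libraries left out Mxd3 and moved the network median from 0.09 to 0.48. Few reads limit Mxd3, Mycn and Mxd4, with 16, 53 and 149 counts in their lower library. No paired analysis was possible because each condition has 1 sample.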

Other observations

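Genes controlled by MondoA and ChREBP, the partners of MLX, were listed as well. Of 12 such genes, 3 lay at a log2 ratio of 1 or more, or 25%, and 2 at -1 or less, or 16.7%. The shares of all genes were 19.3% and 20.2%. Of genes that reached 1000 counts in either library, as 11 of the 12 did, 12.8% and 17.7% lay there. The list median was 0.14, and -0.12 with total counts only. Khk, the enzyme that opens fructose breakdown, was at 1.65, the pyruvate kinase Pklr at 1.56 and Tkfc, which follows Khk in fructose use, at 1.46. Acacb, an acetyl-CoA carboxylase, was at -1.99 with 311 control counts and 60 DSS counts, Klf10 at -1.02 and Acly, which supplies acetyl-CoA for lipid synthesis, at -0.75. Txnip, the most abundant gene of the list and a common readout of MondoA, was at -0.13 and is named here after its value was seen.

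Of 11 other factors that bind E-boxes and had a row, 1 lay at -1 or less, or 9.09%, and none at 1 or more, against 20.2% and 19.3% of all genes, with a median of -0.08 that turned to 0.01 with upper quartile factors. Tfap4, a factor known as a target of MYC in intestinal tumor cells, was the gene past the line, with 2026 and 451 counts and a log2 ratio of -1.78 from -1.93 to -1.63. Bhlhe40 was at -0.83 and Usf2 at -0.62. Clock, the circadian factor, was at 0.97 (0.91 to 1.02) while its partner Arntl was at -0.01. Upper quartile factors moved the median of all genes up by 0.09 and median centring by 0.06, and either shift puts Clock past the line.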
